A study of Mus musculus with 12 samples.

Results

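The genes described here encode 6 mouse Fc receptors, Fcgr1, Fcgr3, Fcgr4, Fcgr2b, Fcgrt and Fcrls, taken by symbol from the 54532 genes of the expression table. RNA was sequenced from 12 libraries of wild-type mouse bone marrow cells, in 4 groups of 3. Marrow cells were expanded in CMG, a source of the macrophage growth factor M-CSF, and then kept as macrophages or turned into osteoclasts, the multinucleated cells that resorb bone, with RANKL. The 4 groups were untreated macrophages, macrophages given lipopolysaccharide (LPS, a component of the outer membrane of Gram-negative bacteria) at 100 ng/mL for 3 h on day 5, untreated osteoclasts, and osteoclasts given the same LPS exposure. The sample labels give RANKL at 100 ng/mL, where the growth protocol gives a range up to that dose, and the culture time is likewise given as a range from day 5 on. All groups had CMG throughout, and the labels do not say whether the 3 libraries of a group came from separate mice or cultures, so p-values measure the spread between these libraries, which may be technical. The comparisons asked how Fc receptor genes responded to LPS in each cell type and how the cell types differed.

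Fc gamma receptors bind the constant part of IgG on immune complexes and opsonised particles. The activating receptors, the products of Fcgr1, Fcgr3 and Fcgr4, signal through the ITAM of the shared gamma chain (Fcer1g) to Src family kinases and Syk, which drive phagocytosis and cytokine release. Fcgr2b encodes the inhibitory receptor, whose ITIM recruits phosphatases such as SHIP1 (Inpp5d). Fcgrt encodes the heavy chain of FcRn, which pairs with beta-2-microglobulin (B2m) and protects IgG from lysosomal degradation. Fcrls encodes an Fc receptor-like protein of mouse myeloid cells that is used as a microglial marker. In osteoclasts the gamma chain and its relative DAP12 (Tyrobp) carry the costimulatory signals of differentiation.

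Libraries held between 15651770 and 20281456 assigned reads. Levels are FPKM, which are per length of gene and scaled to the typical gene of each library. Checked against markers, 10 of 10 osteoclast markers were higher in osteoclasts with and without LPS, and 7 of 8 macrophage markers were lower there. The summed level of the 8 macrophage markers was 13260 to 13330 FPKM in untreated macrophages, 15110 to 15600 in LPS-treated macrophages, 2856 to 3310 in untreated osteoclasts and 2729 to 3567 in LPS-treated osteoclasts. None of the 8 was at 0 in any group. B cell, mast cell and erythroid markers had no gene with a group mean of 1 FPKM, and the highest means of the other lineage lists were 3.84 FPKM of Trac (T cells), 5.31 FPKM of Xcr1 (dendritic cells) and 6.29 FPKM of S100a9 (neutrophils). Stromal markers summed to 25.6 to 35.9 FPKM in untreated macrophages and to 0.0984 to 0.212 in untreated osteoclasts. Replicate 2 of the LPS-treated osteoclasts stood apart from its group in several of the results below, and replicates of that group differed most beyond counting noise (chi-square of up to 11.55 per degree of freedom).

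Fcgr2b, Fcgr4 and Fcgr3 lie in this order on chromosome 1 of build GRCm38, at 170958617 to 170976547, 171018920 to 171029761 and 171051174 to 171064935, and Fcer1g follows at 171229572 to 171234365. Fcgr1 is on chromosome 3 at 96282909 to 96293969, as is Fcrls at 87250758 to 87263738, and Fcgrt is on chromosome 7 at 45092990 to 45103851. All 6 are protein-coding genes in GENCODE M21. All 6 were matched in the RefSeq table of promoters on GRCm38.p6, and the 250 bases before the start site are printed for the 3 activating receptors, whose LPS responses in macrophages ran from 1.41-fold to 9.68-fold. Capitals mark matches, on either strand, to 4 short motifs: TTCNNNGAA (the gamma-activated site), GAGGAA (a core of PU.1 sites), GAAANNGAAA (an interferon-stimulated response element) and GGGANNNNCC (an NF-kB-like site).

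Fcgr1, chr3:96293970-96294219, minus strand: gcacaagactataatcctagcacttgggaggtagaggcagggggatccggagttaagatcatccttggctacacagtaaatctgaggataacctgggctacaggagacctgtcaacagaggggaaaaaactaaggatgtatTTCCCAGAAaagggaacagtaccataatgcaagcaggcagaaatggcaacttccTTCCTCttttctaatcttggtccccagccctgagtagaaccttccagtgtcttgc

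Fcgr3, chr1:171059404-171059653, minus strand: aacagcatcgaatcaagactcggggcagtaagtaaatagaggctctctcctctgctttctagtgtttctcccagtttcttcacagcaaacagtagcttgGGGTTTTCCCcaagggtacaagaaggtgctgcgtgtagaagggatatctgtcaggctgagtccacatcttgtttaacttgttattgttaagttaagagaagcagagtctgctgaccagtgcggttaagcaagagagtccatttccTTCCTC

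Fcgr4, chr1:171018676-171018925, plus strand: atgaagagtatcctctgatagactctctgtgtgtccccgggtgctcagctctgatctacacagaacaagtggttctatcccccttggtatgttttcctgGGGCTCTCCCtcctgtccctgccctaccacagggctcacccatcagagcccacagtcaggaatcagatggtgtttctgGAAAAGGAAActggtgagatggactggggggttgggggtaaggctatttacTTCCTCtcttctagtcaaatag

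The TTCNNNGAA letters occurred among the 6 genes in Fcgr1 alone, starting 109 bases before the start site (position -109), and in 7.0% of the 32851 promoter windows of this length. The GAAANNGAAA letters were in Fcgr4 alone, at position -73, and in 3.0% of all windows. GAGGAA was in the windows of Fcgr1, Fcgr3, Fcgr4 and Fcrls, and in 23.3% of all windows. GGGANNNNCC was in Fcgr2b, Fcgr3 and Fcgr4, and in 17.6% of all windows. No 2 of these matches overlapped, and the window of Fcgrt held none of the 4. The motifs were chosen after the levels were known, and a match is a description of letters, not a bound site.

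The inhibitory and activating receptors also share coding sequence, which bears on how far their reads can be told apart. Over the longest coding sequences, Fcgr3 and Fcgr2b were identical at 86.7% of aligned bases, and every other pair of the 6 at between 59.7% and 70.9%. The longest stretch that Fcgr3 and Fcgr2b share without a difference was 129 bases. It lies in Fcgr3 at 171057691 to 171057792 and 171054167 to 171054193 of chromosome 1, across an exon junction, and is shown because reads from it fit both genes.

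Fcgr3 and Fcgr2b, shared coding stretch: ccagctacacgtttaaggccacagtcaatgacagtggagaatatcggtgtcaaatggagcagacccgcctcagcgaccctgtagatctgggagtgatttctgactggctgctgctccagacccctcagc

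Of the 100-base windows of their transcripts, 2.54% of those of Fcgr3 and 0.75% of those of Fcgr2b were shared with the other gene, and of the 50-base windows 9.58% and 2.92%. The read length and the treatment of reads that match several genes are not given in the sources used here. The scarcer gene is the more exposed to such reads: in untreated osteoclasts Fcgr3 had 1160 reads and Fcgr2b 153, so the 100-base share of the Fcgr3 reads would come to 19.2% of the Fcgr2b reads and the 50-base share to 72.6%. In LPS-treated osteoclasts, with 825 and 724 reads, these were 2.9% and 10.9%. In macrophages the 4 such values ran from 3.5% to 29.1%. No 100-base window of the other 4 genes was shared with any gene. Fcgr2b also shares 155 exon bases with the antisense gene Gm38204, and the sources used here do not state whether counting used strand.

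The high-affinity receptor gene Fcgr1 rose with LPS in both cell types. In untreated macrophages its 3 libraries were at 43.0, 47.7 and 44.5 FPKM, and in LPS-treated macrophages at 162, 150 and 170 FPKM. In osteoclasts it was at 0.398, 0.366 and 0.523 FPKM untreated and at 1.68, 0.927 and 1.88 FPKM with LPS. The 4 groups did not overlap, in the order LPS-treated macrophages, macrophages, LPS-treated osteoclasts, osteoclasts. Mean FPKM was 3.57-fold higher with LPS in macrophages, a difference of 1.81 on the log2(FPKM + 1) scale (SE 0.12, limma adjusted p 4.97e-08), and 3.49-fold higher in osteoclasts, a difference of 0.79 on that scale (SE 0.12, adjusted p 0.000735). The macrophage difference was 1.18 after rescaling to TPM, which gives each library the same total, and 1.06 under quantile normalization, and it was called under both. The osteoclast difference was 1.55 with a pseudocount of 0.1 in place of 1 and 1.77 in limma's voom on recovered reads, also called. The osteoclast levels rested on 58 reads untreated and 212 reads with LPS over 3 libraries, and replicate 2 was the lowest of the treated ones.

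Fcgr3, the low-affinity activating receptor, was the highest of the 6 genes in macrophages. Its libraries were at 275.5, 269 and 249 FPKM in untreated macrophages and at 394, 335 and 392 FPKM in LPS-treated macrophages. In osteoclasts they were at 13.9, 10.8 and 13.4 FPKM untreated and at 12.7, 5.19 and 7.83 FPKM with LPS. The macrophage groups did not overlap, and the osteoclast groups did. Neither LPS effect passed the test: the log2(FPKM + 1) difference was 0.50 in macrophages (SE 0.22, limma adjusted p 0.0584), and -0.59 in osteoclasts (SE 0.22, adjusted p 0.0851). The macrophage call depended on which libraries set the spread and on scaling: the adjusted p was 0.000923 with the macrophage libraries alone, and the difference was -0.15 after rescaling to TPM. Without replicate 1 of the LPS-treated osteoclasts the osteoclast difference was -0.88 (adjusted p 0.0018), and without replicate 2 it was -0.31 (adjusted p 0.225).

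Fcgr4, the activating receptor for IgG2a and IgG2b, had the largest LPS effect of the 6 genes in macrophages. It went from 8.52, 7.08 and 7.76 FPKM to 75.5, 72.7 and 77.8 FPKM, a 9.68-fold change of the mean. In osteoclasts it was at 3.15, 2.78 and 3.00 FPKM untreated and at 5.63, 3.05 and 5.02 FPKM with LPS. The macrophage groups lay far apart, while replicate 2 of the LPS-treated osteoclasts fell within the untreated range. The log2(FPKM + 1) difference was 3.12 in macrophages (SE 0.14, limma adjusted p 1.28e-09) and 0.45 in osteoclasts (SE 0.14, adjusted p 0.0472). The osteoclast call was near the threshold: the adjusted p was 0.159 with the osteoclast libraries alone, 0.0535 in voom and 7.5e-05 without replicate 2. Each of the other 11 fits that left out a library lost the call, with an adjusted p of 0.0572 to 0.169.

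Fcgr2b, the inhibitory receptor, rose with LPS in both cell types. It was at 27.0, 27.5 and 23.8 FPKM in untreated macrophages and at 95.7, 69.3 and 83.3 FPKM in LPS-treated macrophages. In osteoclasts it was at 0.402, 0.470 and 0.650 FPKM untreated and at 2.63, 1.51 and 2.72 FPKM with LPS. As for Fcgr1, no groups overlapped and replicate 2 was the lowest of the treated osteoclasts. Mean FPKM was 3.17-fold higher with LPS in macrophages and 4.51-fold higher in osteoclasts. The log2(FPKM + 1) differences were 1.62 (SE 0.15, limma adjusted p 1e-06) and 1.11 (SE 0.15, adjusted p 0.000262). In macrophages the value was 1.00 with TPM and 1.02 with quantile normalization, and in osteoclasts it was 1.95 with a pseudocount of 0.1 and 2.19 in voom, all called. The osteoclast means rested on 153 and 724 reads, of which the untreated ones are the most open to reads shared with Fcgr3.

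FcRn and the Fc receptor-like gene did not pass the test for LPS in either cell type on the deposited scale, and their calls moved with the processing. Fcgrt was at 56.5, 55.8 and 52.4 FPKM in untreated macrophages and 65.1, 56.4 and 61.4 FPKM with LPS. In osteoclasts Fcgrt was at 12.99, 10.9 and 11.9 FPKM untreated and 15.3, 12.5 and 15.2 FPKM with LPS, and within each cell type the groups overlapped. The log2(FPKM + 1) difference of Fcgrt was 0.15 in macrophages (SE 0.08, limma adjusted p 0.136), and 0.24 in osteoclasts (SE 0.08, adjusted p 0.0665). In macrophages it was called lower after rescaling to TPM (-0.50, adjusted p 9.19e-05), and called higher with the replicate number as a block (0.15, adjusted p 0.0499) and in voom (0.15, adjusted p 0.0452). In osteoclasts it was called higher with that block (adjusted p 0.0206) and under the filter at a mean of 5 FPKM (adjusted p 0.0467).

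Fcrls was at 255, 244 and 238 FPKM in untreated macrophages and at 256, 269 and 264 FPKM with LPS, which do not overlap by a narrow margin. Its log2(FPKM + 1) difference was 0.10 (SE 0.05, limma adjusted p 0.134), and -0.55 after rescaling to TPM (adjusted p 0.000453). In untreated osteoclasts Fcrls had 2, 2 and 3 reads, at the floor of 3 reads per library, against 13790, 13406 and 12354 reads in untreated macrophages. The level was at least 3329-fold lower in untreated osteoclasts than in untreated macrophages. LPS-treated osteoclasts held 6, 0 and 7 reads of Fcrls, so an LPS effect was not detectable at this depth.

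**Figure D1:**
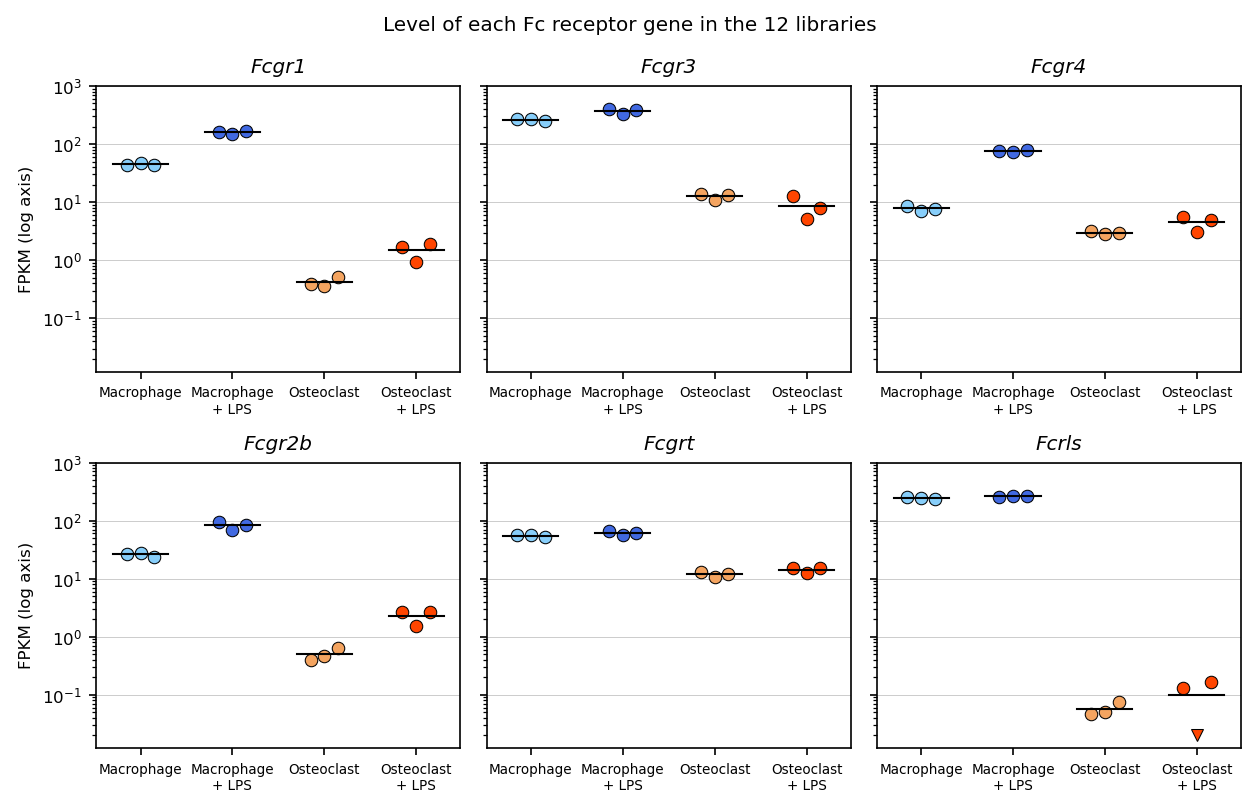
FPKM of the 6 Fc receptor genes on a log axis, 1 point per library and a line at the mean of the 3 libraries of each group; the triangle marks the single library at 0. Every gene is lower in both osteoclast groups than in both macrophage groups, from Fcgr4 with untreated means of 7.79 and 2.98 FPKM to Fcrls with 246 and 0.0576.

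Counted over the 6 genes, LPS called 3 higher in macrophages (Fcgr1, Fcgr4, Fcgr2b) and none lower by limma, with none lower at an unadjusted p under 0.05 or in voom. Fcgr3 was also higher at an unadjusted p under 0.05, and voom called both it and Fcgrt higher. After rescaling to TPM or quantile normalization the same 3 were called higher and Fcgrt and Fcrls lower. Of all 11335 genes tested, 69.9% were called in macrophages, 36.8% higher and 33.1% lower, so a count of 3 of 6 lies near the background. The same 3 genes were called higher in osteoclasts and none lower, where Fcgr3 was lower at an unadjusted p under 0.05 and in voom. There 17.7% of all genes were called, 11.1% higher and 6.59% lower. The count of 3 of 6 is above that share, but it is not stable: with no filter, no variance trend or the osteoclast libraries alone it was 2 (Fcgr1 and Fcgr2b), and TPM and voom called these 2 higher and Fcgr3 lower.

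The test of the difference between the LPS effects, the interaction, called 3 of the 6 genes, each with the smaller value in osteoclasts on the log2(FPKM + 1) scale. Of all genes 56.6% were called in this test, 26.6% with the higher and 30.0% with the lower value in osteoclasts, and on the deposited scale no Fc receptor gene was called on the higher side by limma, at an unadjusted p under 0.05 or in voom. The split turned with scaling: after TPM, and also after quantile normalization, Fcgrt was called higher and Fcgr4 alone lower. Fcrls was called higher there too, but with osteoclast libraries of 0 to 7 reads its value carries the macrophage change with the sign turned and is not read as a difference in response. The difference was -2.67 for Fcgr4 (SE 0.20, limma adjusted p 3.3e-07), -1.08 for Fcgr3 (SE 0.30, adjusted p 0.00958) and -1.03 for Fcgr1 (SE 0.17, adjusted p 0.00028). For Fcgr4 the call held with TPM and quantile normalization. Behind the value of Fcgr3 were LPS effects of opposite sign on this scale, neither of which passed the test by itself. After rescaling to TPM both effects were negative, and the interaction was -0.55 (adjusted p 0.118).

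For Fcgr1 and Fcgr2b the interaction turned on the scale. Their osteoclast levels were below or near the pseudocount of 1 FPKM. As a log2 ratio of mean FPKM, the LPS effect of Fcgr1 was 1.84 in macrophages and 1.80 in osteoclasts. Its interaction was -0.28 (adjusted p 0.429) with a pseudocount of 0.1 and -0.06 (SE 0.38, adjusted p 0.907) in voom. For Fcgr2b the interaction was -0.51 (SE 0.21, limma adjusted p 0.0577) on the log2(FPKM + 1) scale, 0.30 (adjusted p 0.427) with a pseudocount of 0.1 and 0.54 (SE 0.40, adjusted p 0.276) in voom. A difference between cell types in the fold response of Fcgr2b and Fcgr1 was therefore not detectable at this depth. The interaction was 0.10 for Fcgrt (SE 0.12, adjusted p 0.51), which was 0.68 after rescaling to TPM (adjusted p 0.000177).

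**Figure D2:**
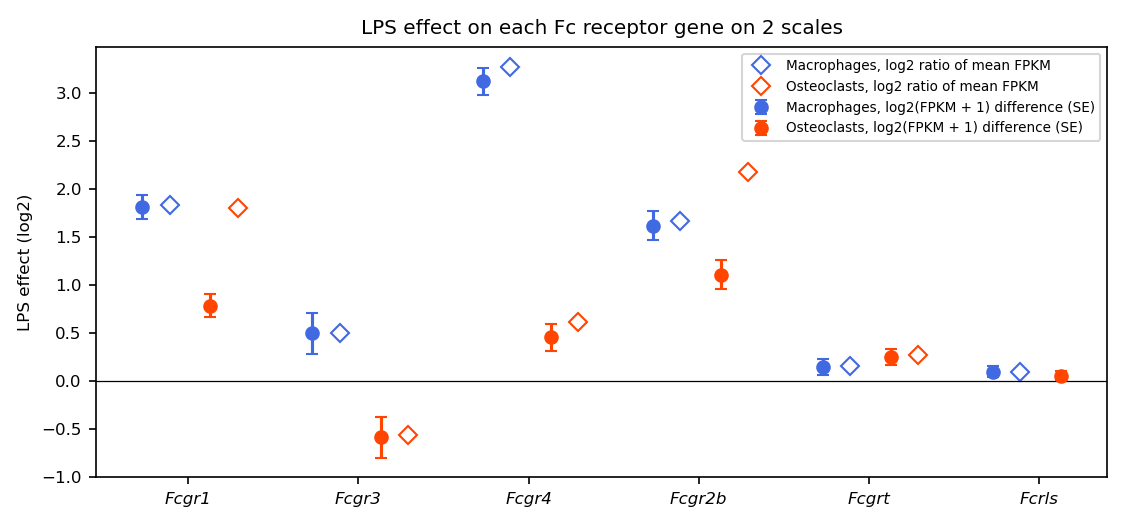
LPS effect on each gene as the log2(FPKM + 1) difference with its SE (filled circles) and as the log2 ratio of mean FPKM (open diamonds), in macrophages (blue) and osteoclasts (orange), 3 libraries per group; the ratio is left out for Fcrls in osteoclasts, where the untreated group is at the floor. The scales part for Fcgr1 and Fcgr2b in osteoclasts, with 0.79 against 1.80 and 1.11 against 2.17.

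Osteoclasts had less of all 6 Fc receptor transcripts than macrophages, with and without LPS, by limma. Among all genes, 77.8% were called between the untreated cell types, 38.8% higher and 39.0% lower in osteoclasts, and 83.9% between the LPS-treated ones, 40.9% higher and 43.0% lower. No macrophage library overlapped an osteoclast library for any of the 6 genes. Fcrls and Fcgr1 passed the filter only through macrophage libraries, where they are high, so the filter bore on their direction. With no filter all 6 were also called lower in both comparisons. Without LPS the log2(FPKM + 1) difference ran from -1.14 for Fcgr4 (SE 0.14, adjusted p 1.14e-05) over -2.12 for Fcgrt, -4.17 for Fcgr2b, -4.28 for Fcgr3 and -5.01 for Fcgr1 to -7.86 for Fcrls. With LPS it ran from -2.02 for Fcgrt (SE 0.08, adjusted p 2.42e-10) over -3.81 for Fcgr4, -4.68 for Fcgr2b, -5.36 for Fcgr3 and -6.04 for Fcgr1 to -7.91 for Fcrls. In these bulk libraries fewer macrophage-like cells and less RNA per cell cannot be told apart.

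Untreated osteoclasts retained 38.2% of the macrophage level of Fcgr4 and 21.7% of that of Fcgrt, against 4.81% for Fcgr3, 1.94% for Fcgr2b and 0.952% for Fcgr1. With LPS the share for Fcgr4 was 6.06%, since the level in macrophages was higher there. The share of Fcrls was at the floor. The macrophage markers ran without LPS from 0.877% for Mrc1 (the mannose receptor) over 7.74% for Adgre1 (F4/80), 9.22% for Mertk, 11.7% for Lyz2 (lysozyme), 24.3% for Itgam and 70.4% for Csf1r (the M-CSF receptor) to 209.1% for Cd68, so 2 of them lay above the share of every Fc receptor gene. Among LPS-treated osteoclasts, replicates 1 to 3 had 73.1, 42.5 and 70.9 FPKM of Adgre1, 3.35, 1.62 and 3.41 FPKM of Mrc1, and 1843, 927 and 1590 FPKM of Lyz2. Replicate 2, the lowest of the 3 libraries in all 6 Fc receptor genes, was also the lowest in 6 of the 8 macrophage markers, while it was the highest in Csf1r, with 286, 303.5 and 289 FPKM, and in Cd68, with 1351, 1446 and 1325 FPKM. In osteoclasts Adgre1 rose with LPS by 0.85 as a log2(FPKM + 1) difference (SE 0.16, limma adjusted p 0.00258), from a mean of 33.2 to 62.2 FPKM, while Mrc1 was at 2.57 and 2.79 FPKM (adjusted p 0.876). The part of residual macrophages in the osteoclast levels of the Fc receptor genes was not tested.

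**Figure D3:**
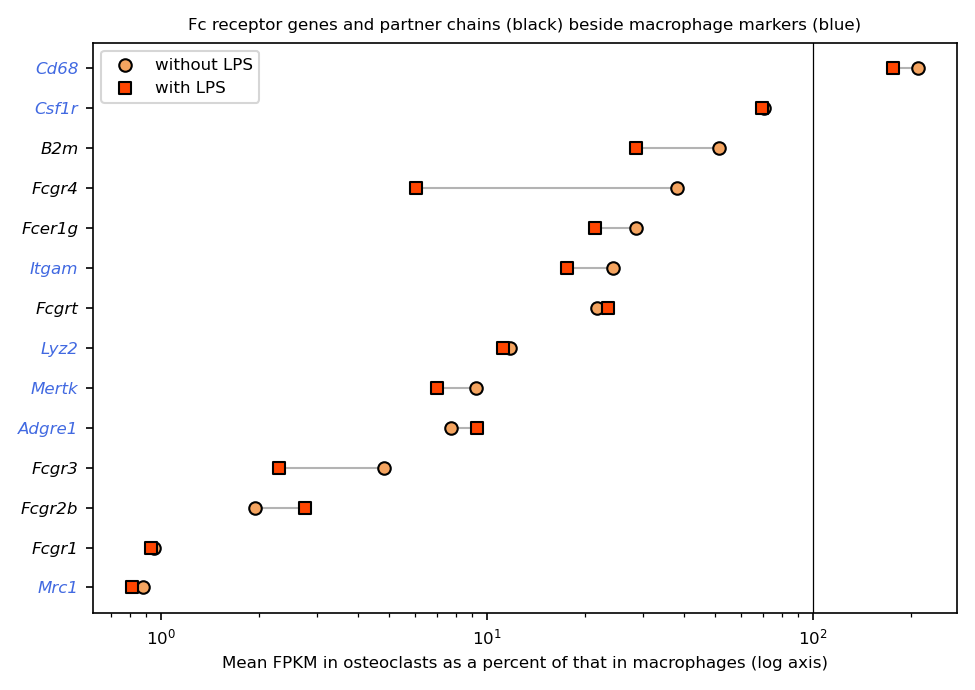
Mean FPKM in osteoclasts as a percent of the mean in macrophages on a log axis, without LPS (circles) and with LPS (squares), for 5 Fc receptor genes and their partner chains (black) and 7 of the 8 macrophage markers (blue); Fcrls, at the floor, is left out. Fcgr1 at 0.952% sits beside Mrc1 at 0.877%, and Fcgr4 moves from 38.2% to 6.06%.

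The mix of Fc gamma receptor transcripts shifted with LPS in both cell types, described here with no test. The 4 genes summed to 354, 352 and 325 FPKM in untreated macrophages and to 727.5, 627 and 724 FPKM with LPS. In osteoclasts they summed to 17.9, 14.4 and 17.6 FPKM untreated and to 22.7, 10.7 and 17.4 FPKM with LPS. The total was thus higher with LPS in every macrophage library, and the osteoclast totals overlapped.

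Fcgr3 made up 77.0% ± 0.720 (SD, n = 3) of the 4 in untreated macrophages and 76.4% ± 1.51 in untreated osteoclasts. With LPS its share was 53.9% ± 0.426 and 49.9% ± 5.76. Fcgr2b went from 7.60% to 11.9% of the sum in macrophages and from 3.07% to 13.8% in osteoclasts. Fcgr4 made up 2.27% in untreated and 10.9% in LPS-treated macrophages, and 18.0% and 27.4% in osteoclasts. Fcgr1 had 13.1% and 23.2% in macrophages but 2.58% and 8.96% in osteoclasts. The smaller share of Fcgr3 and the larger share of Fcgr2b with LPS held in each of the 3 libraries of both cell types.

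The summed FPKM of the 3 activating receptor genes over that of inhibitory Fcgr2b was 12.1, 11.8 and 12.6 in untreated macrophages and 6.60, 8.05 and 7.69 with LPS. In osteoclasts the ratio was 43.5, 29.7 and 26.1 untreated and 7.61, 6.06 and 5.42 with LPS. LPS-treated groups lay below untreated groups without overlap in both cell types. The high untreated osteoclast ratio rests on the low Fcgr2b level, and with a pseudocount of 1 FPKM on each gene its mean was 12.7 in place of 33.1. Within the sum the genes differed: in macrophages Fcgr3 over Fcgr2b went from 10.1 ± 0.337 to 4.55 ± 0.384 (SD, n = 3), while Fcgr4 over Fcgr2b went from 0.299 ± 0.0371 to 0.924 ± 0.131. In osteoclasts Fcgr4 over Fcgr2b went the other way with LPS, from 6.12 ± 1.62 to 2.0 ± 0.146. With a pseudocount of 1 FPKM these means were 2.65 and 1.685.

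**Figure D4:**
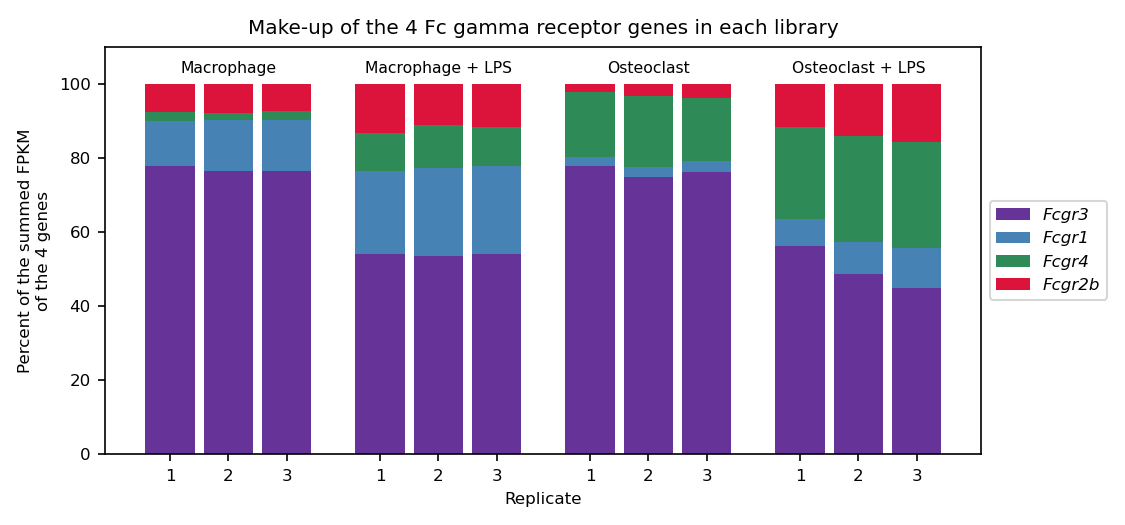
Percent of the summed FPKM of the 4 Fc gamma receptor genes taken by each gene, 1 bar per library. Fcgr3 (purple) has 76.6% to 77.8% in untreated macrophages and 53.5% to 54.2% with LPS, and Fcgr2b (red) is larger with LPS in both cell types.

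The activating receptors need the gamma chain for surface expression, and FcRn needs beta-2-microglobulin. Fcer1g was at 695, 743 and 728 FPKM in untreated macrophages, at 1111, 1165 and 1177 FPKM with LPS, at 212, 206 and 202 FPKM in untreated osteoclasts and at 274, 230 and 235 FPKM with LPS. The order of the groups was that of Fcgr1, with no overlap. Its log2(FPKM + 1) difference with LPS was 0.67 in macrophages (SE 0.06, limma adjusted p 7.95e-07), which was 0.02 and not called with TPM and -0.60 under quantile normalization, and 0.25 in osteoclasts (SE 0.06, adjusted p 0.015). The latter fell short of the threshold under quantile normalization, at 0.12. Fcer1g over the summed activating receptors was 2.28 ± 0.148 in untreated macrophages and 12.9 ± 1.56 in untreated osteoclasts (SD, n = 3). Untreated osteoclasts thus had 28.7% of the macrophage level of the gamma chain, against 38.2% of that of Fcgr4, 4.81% of that of Fcgr3 and 0.952% of that of Fcgr1. Tyrobp, the other ITAM adaptor, was at 792 and 787.5 FPKM in the untreated cell types, a log2(FPKM + 1) difference of -0.01 (SE 0.06, adjusted p 0.918).

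B2m, the light chain of FcRn and of MHC class I, rose with LPS from 1263 ± 27.4 to 2685 ± 100.8 FPKM in macrophages and from 648 ± 39.2 to 765 ± 74.3 FPKM in osteoclasts (SD, n = 3). Its log2(FPKM + 1) differences were 1.09 (SE 0.07, limma adjusted p 2.6e-08) and 0.24 (SE 0.07, adjusted p 0.0331), and the interaction was -0.85 (SE 0.10, adjusted p 1.14e-05). With TPM the macrophage value was 0.44 and the interaction -0.27, and with quantile normalization they were 0.25 and -0.11, the last not called, nor was the osteoclast value of 0.14. Its partner Fcgrt passed none of these tests on the deposited scale. Cd247, the zeta chain that can stand in for the gamma chain in lymphocytes, had group means of at most 1.15 FPKM and reached 1 FPKM in LPS-treated macrophages alone, so it passed the filter only through that group.

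Other Fc receptor genes were sparse, apart from Trim21. Of 12 in the list, 6 were at 0 in every library (Fcer1a, Ms4a2, Fcmr, Fcamr, Pigr and Fcrl6), and 3 passed the filter (Trim21, Fcrlb and Fcrl1). Fcrl1 had group means of at most 1.93 FPKM. Fcer1a and Ms4a2 encode chains of the IgE receptor, so neither cell type held it at this depth. Trim21, the cytosolic antibody receptor, rose with LPS from 4.94 to 87.0 FPKM in macrophages (a log2(FPKM + 1) difference of 3.89, SE 0.09, limma adjusted p 4.11e-12) and from 1.10 to 7.33 FPKM in osteoclasts (1.99, SE 0.09, adjusted p 3.09e-08). Fcrlb, next to Fcgr2b on chromosome 1, rose from 0.316 to 6.66 FPKM in macrophages (2.53, SE 0.12, adjusted p 1.9e-09) and from 0.0907 to 0.722 FPKM in osteoclasts (0.66, SE 0.12, adjusted p 0.00242). The values of Fcrlb moved with the scale: voom gave 4.42 and 2.81, a pseudocount of 0.1 gave 4.07 and 2.13, and TPM gave 1.25 in osteoclasts. Fcrlb reached 1 FPKM in LPS-treated macrophages alone and so passed the filter only through the group where it is high. Trim21 had a smaller LPS effect in osteoclasts on the log2(FPKM + 1) scale, with an interaction of -1.90 (-1.08 with TPM).

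Of 20 genes of ITAM signalling, 13 were called higher and 5 lower with LPS in macrophages, with a median log2(FPKM + 1) difference of 0.54 against 0.02 over all genes. In osteoclasts 7 were higher and 2 lower, with a median of 0.04 against 0.01. Over all genes 36.8% were higher and 33.1% lower in macrophages, and 11.1% higher and 6.59% lower in osteoclasts. Most of the 20 had a mean of at least 5 FPKM. Of the 6430 genes at that level, 3116 were called higher in macrophages, and their median difference was 0.14. Src rose in macrophages from 1.23 to 46.2 FPKM (4.40, SE 0.07, limma adjusted p 1.3e-13), and Lcp2, the adaptor SLP-76, from 20.3 to 205.5 FPKM (3.28, SE 0.04, adjusted p 8.49e-14). Lcp2 also rose in osteoclasts, from 55.1 to 72.4 FPKM (0.39, SE 0.04, adjusted p 6.78e-05). Src in osteoclasts was already at 108.8 FPKM untreated and was 124 FPKM with LPS. Between the untreated cell types 7 of the 20 were higher and 11 lower in osteoclasts, where 38.8% and 39.0% of all genes were. Syk was among the higher ones, at 51.4 FPKM against 22.0 (1.19, SE 0.05, adjusted p 3.66e-10), while Pik3cg, a PI 3-kinase subunit of leukocytes, was at 3.21 against 21.4 FPKM (-2.41, SE 0.06, adjusted p 7.14e-12).

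Of 12 genes of inhibitory signalling, which act downstream of receptors such as that of Fcgr2b, 5 were higher and 6 lower with LPS in macrophages, and 1 was higher and 5 lower in osteoclasts. The shares over all genes were the 36.8% and 33.1%, and the 11.1% and 6.59%, given above, so the macrophage counts lie near them. The median log2(FPKM + 1) difference was -0.24 and -0.15, against 0.02 and 0.01 over all genes. Inpp5d, which encodes SHIP1, fell in macrophages from 69.3 ± 0.709 to 19.7 ± 1.22 FPKM (SD, n = 3), a difference of -1.77 (SE 0.06, limma adjusted p 6.61e-11), where Fcgr2b rose. In osteoclasts it fell from 31.1 to 26.0 FPKM (-0.25, SE 0.06, adjusted p 0.0109). Dok3 and Pag1 also fell in macrophages, by 1.51 and 1.46, and Ptpn22 rose by 1.47. The interaction was 1.52 for Inpp5d and -1.55 for Ptpn22.

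**Figure D5:**
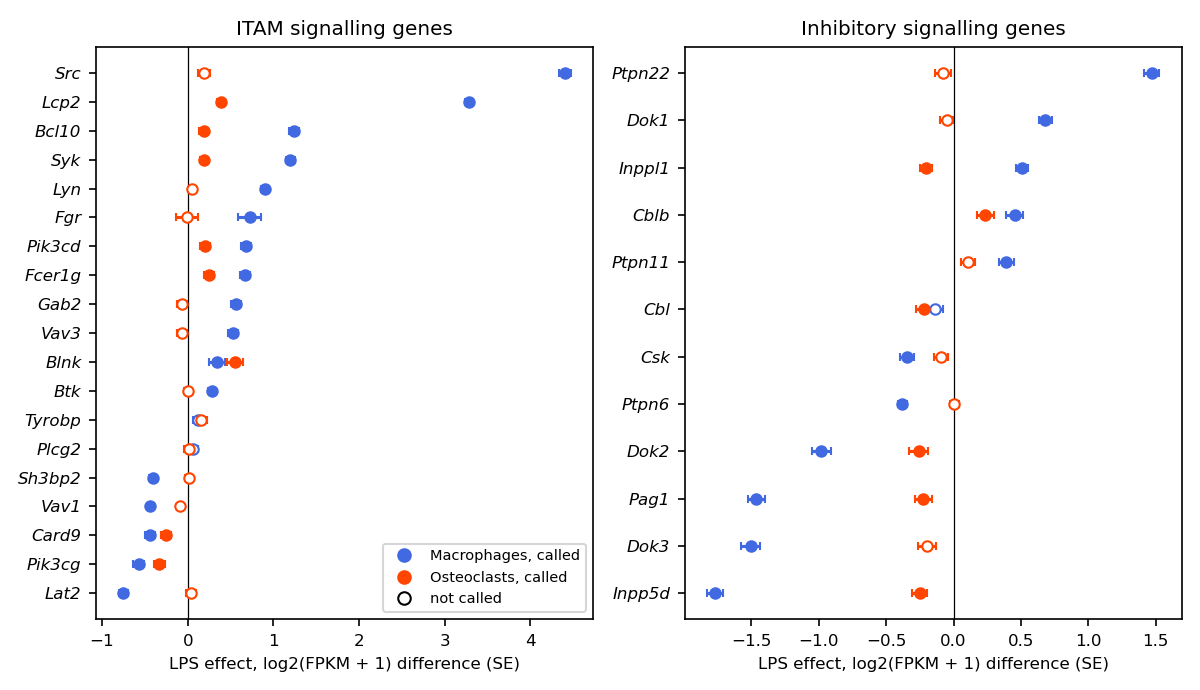
LPS effect as the log2(FPKM + 1) difference with its SE for 19 of the 20 ITAM signalling genes and 12 inhibitory signalling genes, in macrophages (blue) and osteoclasts (orange); filled points passed an adjusted p of 0.05 and open points did not. Src has 4.40 in macrophages, and Inpp5d is the lowest inhibitory gene there with -1.77.

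Of 18 actin effectors of phagocytosis, 13 were higher and 1 lower with LPS in macrophages, and 4 were higher and 14 not called in osteoclasts, by limma. In the same comparisons 36.8% of all genes were higher and 33.1% lower, and 11.1% higher and 6.59% lower. The median log2(FPKM + 1) differences were 0.23 and 0.05, against 0.02 and 0.01 over all genes. Most of these effectors had a mean of at least 5 FPKM. Among the 6430 such genes, 3116 were called higher in macrophages, with a median difference of 0.14. Marcks rose from 51.5 to 428.6 FPKM in macrophages (3.03, SE 0.14, limma adjusted p 1.04e-09) and from 5.16 to 15.9 FPKM in osteoclasts (1.43, SE 0.14, adjusted p 1.39e-05). Vasp, a promoter of actin filament growth, rose from 56.9 to 246 FPKM in macrophages (2.09, SE 0.05, adjusted p 4.13e-12). Myo10, a myosin of phagocytic cups, rose from 11.0 to 41.0 FPKM there (1.81, SE 0.07, adjusted p 2.94e-10). The smaller calls depended on scaling: Actr2 had 0.61 as deposited and -0.29 under quantile normalization.

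Fcrls was set beside 12 other genes of the microglial signature, of which 9 passed the filter. Between the untreated cell types 6 of the 9 were lower and 2 higher in osteoclasts, with a median log2(FPKM + 1) difference of -2.35 against 0.00 over all genes, of which 39.0% were lower and 38.8% higher. Of the lower ones, Cx3cr1, P2ry12, P2ry13, Gpr34 and Olfml3 reached 1 FPKM in no osteoclast library. They passed the filter only through macrophages, where they are high, so this count and median are not read as a result. Cx3cr1, the fractalkine receptor, went from 142 FPKM in macrophages to 0.486 in osteoclasts (-6.60, SE 0.09, limma adjusted p 3.57e-14), P2ry12 from 15.3 to 0.252 FPKM and Trem2 from 125 to 10.2 FPKM. Gpr34 was at 10.7 FPKM in macrophages and had no read in untreated osteoclasts. With LPS in macrophages 5 of the 9 were lower and 1 higher, against 33.1% and 36.8% of all genes. Cx3cr1 fell there to 37.8 FPKM (-1.89, SE 0.09, adjusted p 2.47e-09), whereas Fcrls was at 246 and 263 FPKM. Sall1, a transcription factor of microglia, was at 0 in all 12 libraries.

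The neighbours of the chromosome 1 genes did not share one pattern. Sdhc, a mitochondrial enzyme gene beside Fcgr3, was at 31.3 FPKM in untreated macrophages and 99.8 in untreated osteoclasts, opposite in order to the 3 receptor genes. Pcp4l1, between Sdhc and Fcer1g, was at 29.1 and 1.4 FPKM, in the same order as the receptor genes. Within the cluster LPS changed the macrophage mean 9.68-fold for Fcgr4, 3.17-fold for Fcgr2b and 1.41-fold for Fcgr3. Across the 12 libraries, the Pearson correlation of log2(FPKM + 1) between pairs of the 6 genes ran from 0.746 for Fcgr4 and Fcrls to 0.996 for Fcgr2b and Fcgr1. These values describe points that share 4 groups, so they mostly carry the gap between the cell types.

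Among the 6430 genes whose mean reached 5 FPKM, those most like each receptor gene over the 12 libraries were found by Pearson r of log2(FPKM + 1). They were Xylt2, Gng12 and Adap2 for Fcgr1 (highest r 0.998), Nucks1, Dab2 and Tmem106a for Fcgr3 (0.997), and Rbm43, Sppl2a and Olr1 for Fcgr4 (0.998). For Fcgr2b they included Lgals9 and Ncf1 (0.999), for Fcgrt Pf4, Man1a and Mki67 (0.998), and for Fcrls Slc9a9, F13a1 and Hpgd (1.00). Lgals9 (galectin-9) had 52.8, 153, 3.60 and 8.13 FPKM in the 4 groups, in the order macrophages, LPS-treated macrophages, osteoclasts and LPS-treated osteoclasts, beside 26.1, 82.8, 0.508 and 2.29 FPKM for Fcgr2b. Olr1, a scavenger receptor, had 1.96, 106.5, 0.0367 and 0.474 FPKM beside 7.79, 75.4, 2.98 and 4.56 FPKM for Fcgr4. As with the pairs above, r over 4 groups of libraries is a description of shape and not of size.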

How the data were processed

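RNA was sequenced in 12 libraries, 4 groups of 3 taken from the sample titles. The authors deposited FPKM values for 54532 Ensembl mouse genes, of which 54409 had a symbol. Per the submitters' processing notes, fastp, STAR, featureCounts and DESeq2 were used with build mm10; versions are not given in the sources used here. Per the deposited values, FPKM denominators departed by at most 4.2e-06% from median-of-ratios size factors times the geometric mean of the read totals, so a change is relative to the typical gene. Whole reads were recovered for 100.0% of the 25854 genes above 0, within a tolerance of 0.02 read, and gene lengths matched merged exons of GENCODE M21 for 96.8%. Totals were 15651770 to 20281456 reads per library. Floors of 3 reads cover counting error only.

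The test was limma 3.58.1 (R 4.3.3; lmFit, contrasts.fit and trended eBayes) applied to log2(FPKM + 1), a scale that understates changes of low genes. The 11335 genes that reached 1 FPKM in 3 or more libraries entered, all 12 libraries in 1 fit of 4 group means, for 5 contrasts. The two-sided p-values had Benjamini-Hochberg adjustment over these genes, with calls made under 0.05. A single gene compared by exact permutation of 3 against 3 libraries cannot go below 0.1, so none was run. Replicates differed beyond counting noise in every group, so none was merged. The deposited FPKM scale was also replaced by TPM and by quantile normalization. Further settings tried were a smaller pseudocount (0.1), no filter or a stricter one (mean of 5 FPKM or more), an untrended variance, a block for the replicate number, fits of just the compared groups, and leaving out each library. Limma's voom on recovered reads was added after seeing the data. No negative binomial model was run. The test was checked on simulated counts for the macrophage LPS comparison alone, over 10285 genes. It recovered 77 of 83 genes changed by 1 on the log2 scale and all 103 changed by 2. Of its 191 calls, 11 were of unchanged genes. In the data 69.9% of genes were called in macrophages, a far larger share. Recovery with that many genes changed, or in the osteoclast comparisons, was not tested.

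The members and lists were chosen with earlier results of these data known. Named genes were the 6 receptor genes, Fcer1g and B2m, up to 4 genes per list and contrast with the largest absolute log2 difference among those called, and the 3 genes most like each receptor gene. Syk, Tyrobp, Sdhc, Pcp4l1, Olfml3, Sall1, the genes at 0 and the marker genes were named outside that rule, after their values were seen. Some genes selected by these rules are not reported here. Shared windows of 100 bases and coding identity were computed from GENCODE M21 transcripts, and promoter sequences are those of RefSeq. Protein sequences were not used here.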

Additional observations from a re-analysis of the deposited data

Results flagged for a closer look

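Macrophages and osteoclasts differed in their LPS effect, by the interaction of the limma fit on log2(FPKM + 1), for 21 of the named genes. For the receptor genes the value, osteoclasts minus macrophages, was -1.03 for Fcgr1, -1.08 for Fcgr3 and -2.67 for Fcgr4. That of Fcgr1 was not called with a pseudocount of 0.1, after either rescaling or in voom. For the partner chains it was -0.42 for Fcer1g, -0.85 for B2m and -0.90 for Cd247. Cd247 reached 1 FPKM in LPS-treated macrophages alone, so the filter fixed its direction, and it was -2.31 with a pseudocount of 0.1, -1.41 with TPM and -3.09 in voom. The value of Fcer1g turned to 0.15 with TPM and 0.72 with quantile normalization, and that of B2m was -0.11 and not called under the latter. Fcgr3 was not called after either rescaling. The interaction was -1.90 for Trim21 and -1.88 for Fcrlb among other Fc receptor genes, the latter fixed by the filter in the same way. Among ITAM signalling genes it was -4.21 for Src, -2.90 for Lcp2 and -1.05 for Bcl10. Among inhibitory signalling genes it was -1.55 for Ptpn22, 1.52 for Inpp5d, 1.31 for Dok3 and 1.24 for Pag1. Among actin effectors it was -1.69 for Vasp, -1.61 for Marcks, -1.29 for Myo10 and -0.59 for Actr2, which was -0.014 with TPM and turned to 0.20 with quantile normalization. The microglial genes Cx3cr1 and Gpr34 had 1.65 and 0.86, both with osteoclast levels under 1 FPKM, so these values carry the macrophage change; neither they nor Fcrlb were called in voom. With TPM the values nearer 0 were -1.08 for Trim21, -0.52 for Bcl10, -1.12 for Vasp, -0.95 for Marcks and -0.77 for Myo10, all still called, and those farther from 0 were 1.96 for Dok3, 1.98 for Pag1 and 1.58 for Gpr34. The interaction was called for 56.6% of all genes tested.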

How the results depend on the processing

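The lower level of the 6 receptor genes in osteoclasts was called under every alternative run. TPM shifted the median over all genes (log2) by -0.58 in macrophages, -0.38 and 0.14 between the untreated and treated cell types and 0.53 for the interaction, and quantile normalization by -0.16 in macrophages and 0.11 between the treated cell types. Higher genes made up 52.6% of the macrophage calls as deposited, 18.5% with TPM and 37.0% with quantile normalization; for osteoclasts these were 62.8%, 43.5% and 38.5%, for the interaction 47.0%, 82.0% and 59.9%, and between untreated cell types 49.9% and 29.9% with TPM. In macrophages, TPM and quantile normalization gave -0.15 and -0.32 for Fcgr3, -0.50 and -0.53 for Fcgrt, -0.55 and -0.71 for Fcrls and -0.037 and -0.29 for Actr2; quantile normalization gave -0.60 for Fcer1g and TPM -0.16 for P2ry13. In osteoclasts quantile normalization gave -0.023 for Fcrls and -0.016 for Arpc5. For the interaction the values with TPM and quantile normalization were -0.025 and -0.35 for Fcgr1, -0.55 and -0.34 for Fcgr3 (no longer called), 0.54 and 0.0057 for Fcgr2b, 0.68 and 0.71 for Fcgrt and 0.65 and 0.69 for Fcrls (all called), and 0.15 and 0.72 for Fcer1g, with 0.20 for Actr2 under the latter. A pseudocount of 0.1 gave -0.28 for Fcgr1, 0.30 for Fcgr2b and 0.12 for Fcrls, and voom gave -0.062, 0.54 and 0.024. The cause was not tested.

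Fcgr3 in macrophages (0.50) was called with a mean of at least 5 FPKM, the replicate block, only the groups compared, voom, and without replicate 1 or 2 of the LPS-treated osteoclasts, over a range of 0.45 to 0.57 with libraries left out. Fcgr3 in osteoclasts was called with TPM (-0.70), quantile normalization (-0.65), the replicate block (-0.59) and voom (-0.61), over a range of -0.88 to -0.31. Fcgr4 in osteoclasts was not called without the filter, without the trend or with only the groups compared (0.45), with TPM (0.46) or voom (0.60), or in 11 of the 12 fits that left out a library, over 0.31 to 0.67. The interaction of Fcgr2b was called at a mean of at least 5 FPKM and with the replicate block (-0.51), and without replicate 2 of the LPS-treated macrophages or replicate 1 or 3 of the LPS-treated osteoclasts, over a range of -0.63 to -0.33. Fcgrt was called in macrophages with the replicate block and voom (0.15), and in osteoclasts at a mean of at least 5 FPKM and with the block (0.24), and without replicate 1 of the untreated or replicate 2 of the LPS-treated osteoclasts, over 0.19 to 0.33. Fcrls in macrophages was called with only the groups compared (0.10), over 0.074 to 0.12, and its interaction ran from -0.090 to 0.020. The number of receptor genes called in macrophages was 3, all higher. It was 5 with TPM or quantile normalization (3 higher, and Fcgrt and Fcrls lower), and 5, all higher, with the replicate block or voom (adding Fcgr3 and Fcgrt) and with only the groups compared (adding Fcgr3 and Fcrls). With a library left out it was 3 to 5, the 5 without replicate 2 of the LPS-treated osteoclasts. In osteoclasts it was 3, all higher, 2 with no filter, no trend or only the groups compared, 4 with quantile normalization (Fcgr3 lower) or a mean of at least 5 FPKM, and 5 with the block (4 higher, Fcgr3 lower). With a library left out it was 2 in 9 of 12 fits, 3 without replicate 1 of either osteoclast group and 4 without replicate 2 of the LPS-treated ones, and Fcgr4 was among them in the last alone. For the interaction 3 were called, all lower, 2 with a pseudocount of 0.1 or voom (Fcgr4 and Fcgr3), 4 with the block or a mean of at least 5 FPKM (adding Fcgr2b), 3 or 4 with a library left out, and Fcgr4 lower with Fcgrt and Fcrls higher with TPM or quantile normalization. The untreated osteoclast ratio was 33.1, and 12.74 with a pseudocount of 1. With a mean of at least 5 FPKM fewer genes were tested, and 4851 in place of 7921 were called in macrophages, 5427 of 8822 and 5694 of 9509 between cell types and 4018 of 6413 for the interaction. Same-numbered libraries correlated at -0.07 to 0.10, and different-numbered ones at -0.14 to 0.11. With 3 libraries per group these values cannot decide whether the numbers pair the samples. The block moved the osteoclast count from 2008 to 1930 genes. The interaction was not run with only the groups compared. Depth limits the osteoclast values of Fcgr1, Fcgr2b and Fcrls.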
